A study of Mus musculus with 6 samples.

Results

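In 1 single-cell library from the developing mouse retina (embryonic day 14), cells rich in Ftl1 transcripts were compared with cells that had none. The library was labelled Bax null Atoh7 null replicate 1. Members were selected on a measured value, the number of Ftl1 UMIs (unique molecular identifiers, 1 per captured RNA molecule), among cells of 1500 to 4000 UMIs. Of its 14730 cells 9062 lay in that window, and 1809 of these with 3 or more Ftl1 UMIs formed the Ftl1-high class while 4939 with 0 formed the Ftl1-zero class. The other 2314 had 1 or 2 Ftl1 UMIs and belonged to neither class. The whole series held 67050 cells in 6 libraries, 2 for each of the genotypes Bax het Atoh7 null, Bax null and Bax null Atoh7 null, made with a droplet 3′ RNA-seq kit. The library of interest and its companion were labelled as double mutants for Bax and Atoh7. The same split in the libraries of Bax het Atoh7 null, which have 1 Bax copy by their label and share the loss of Atoh7, served as the control for cell state. All 3 libraries of the split were labelled Atoh7 null, so no value here bears on the presence of Atoh7. The labels give neither the alleles, nor the exons removed, nor how many embryos were pooled in a library.

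Ftl1 encodes the light chain of ferritin, the cage that stores iron in the cytoplasm, and Fth1 encodes the heavy chain. Bax encodes a protein that, once activated, opens the outer membrane of mitochondria and so commits a cell to apoptosis. Many newborn retinal ganglion cells die by this route, and ganglion cells that form without Atoh7 are known to be lost in large numbers. Ftl1 and Bax are neighbours on chromosome 7, so an Ftl1 transcript can mark a cell whose Bax region is intact if the Bax null chromosome yields little Ftl1. Cells are not replicates and the library of interest stands alone. Hence no p-value is given, and each level is a sum over cells with an exact 95% interval that covers counting error only. Levels are in CPM, the UMIs of a gene per 1000000 UMIs of all genes in the same cells. A log2 ratio is Ftl1-high over Ftl1-zero, so positive values mean higher in the Ftl1-high class.

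Bax (ENSMUSG00000003873) lies on the minus strand of chromosome 7 from 45461697 to 45466898 and Ftl1 (ENSMUSG00000050708) on the same strand from 45457944 to 45459884 (GRCm38, GENCODE M21). The end of Bax and the start of Ftl1 are 1812 bases apart. The 250 bases before the RefSeq start of Ftl1 (GRCm38.p6, chr7:45459887-45460136, minus strand) fall in that gap and are shown because they belong to the gene that defines the classes. Capitals mark the letters CCAAT, read on either strand. This motif was found 2 times, 78 and 34 bases before the start, and 33.8% of 32851 promoter windows of the same length held it.
Ftl1: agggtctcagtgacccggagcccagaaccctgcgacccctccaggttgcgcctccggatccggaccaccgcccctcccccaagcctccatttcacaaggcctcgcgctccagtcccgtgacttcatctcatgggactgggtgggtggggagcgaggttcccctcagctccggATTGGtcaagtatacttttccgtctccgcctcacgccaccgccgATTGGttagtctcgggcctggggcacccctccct

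Some features of the libraries preceded the split. The library of interest shared 2596 cell barcodes with Bax null Atoh7 null replicate 2, which was 17.6% of its cells, whereas the other 14 pairs of libraries shared 126 to 223. Over the shared barcodes replicate 2 had 2.63 times the UMIs of replicate 1 (quartiles 2.56 and 2.69), and 89.4% had the same cell type label in both. Shared barcodes made up 548 of the Ftl1-zero cells (11.1%) and 26 of the Ftl1-high cells (1.44%), so values without them are given beside the main ones. The library totals ranged from 22463515 to 66594431 UMIs. The Ftl1-high and Ftl1-zero classes had medians of 2371 and 2168 UMIs and of 1267 and 1192 genes per cell. Mitochondrial genes took 1.10% and 1.11% of their UMIs and ribosomal protein genes 23.1% and 23.4%.

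The number of Ftl1 UMIs per cell set the library of interest apart from the other 5. In Bax het Atoh7 null replicates 1 and 2, 4.54% and 8.63% of the window cells had 0 Ftl1 UMIs and 70.8% and 52.97% had 3 or more. In Bax null Atoh7 null replicate 2 the shares were 91.8% and 0.0312% (2 cells). In Bax null replicates 1 and 2 they were 72.6% and 65.3% for 0 UMIs, and 0.656% (11 cells) and 1.53% (14 cells) for 3 or more. The Bax null libraries were deeper, with medians of 5660.5 and 6804 UMIs per cell, so the window kept 1676 of their 10268 and 914 of their 9269 cells, and mitochondrial genes took 4.02% and 4.07% of the UMIs of their Ftl1-zero cells. The library of interest had 54.5% at 0 and 19.96% at 3 or more, between the libraries of Bax het and the remaining Bax null ones at both ends. Just inside the threshold 622 cells had 3 Ftl1 UMIs, and just outside it 764 cells had 2.

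**Figure D1:**
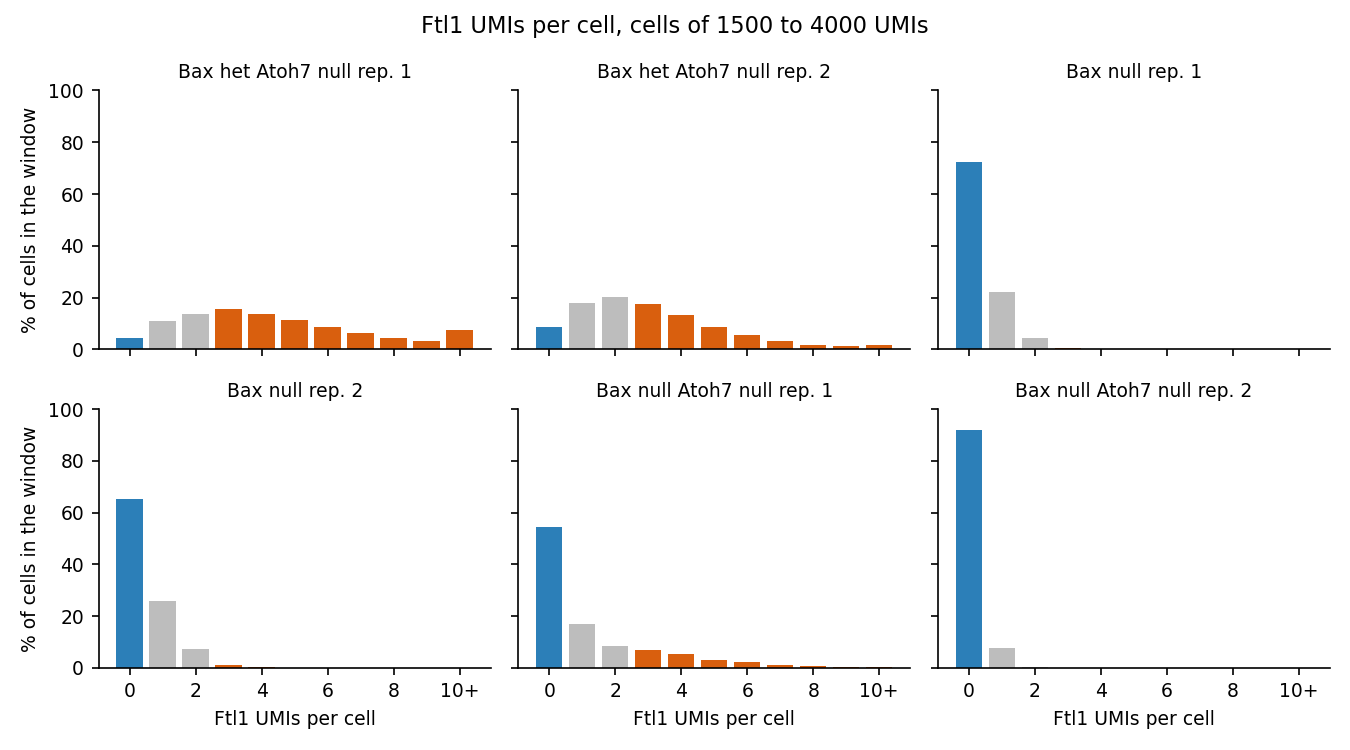
Share of window cells (y axis, percent) by number of Ftl1 UMIs per cell (x axis, 10+ pools 10 or more) in each of the 6 libraries, with the zero class in blue, the high class in orange and cells of neither class in grey. Bax null Atoh7 null replicate 1 has 54.5% of its cells at 0 and 19.96% at 3 or more, while replicate 2 has 91.8% at 0.

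Both classes held all 5 cell types labelled by the authors. There were 1060 Ftl1-high and 3302 Ftl1-zero retinal progenitor cells, 339 and 907 neurogenic cells, 233 and 397 retinal ganglion cells, 90 and 186 cones, and 87 and 147 horizontal cells. Within a type the Ftl1-high class was smallest in progenitors (17.8% of window cells) and largest in ganglion cells (30.3%). The control libraries had too few Ftl1-zero cells for the split in 3 of the types, with 2 and 9 ganglion cells, 7 and 10 cones, and 9 and 17 horizontal cells. They allowed it in progenitors (234 and 532 Ftl1-zero cells) and neurogenic cells (69 and 159). For ganglion cells a wider low class of 0 to 2 Ftl1 UMIs was used instead.

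Bax, which the selection did not use, was several-fold higher in the Ftl1-high cells of the library of interest. In progenitors it stood at 82.8 CPM (95% interval 72.3 to 94.3, 225 UMIs) in the Ftl1-high class and at 14.1 CPM (11.6 to 17.0, 110 UMIs) in the Ftl1-zero class. The log2 ratio was 2.56 (2.22 to 2.90), a 5.88-fold difference, and 2.48 without the shared barcodes. The control libraries showed a smaller gap or none in progenitors, at 129.1 against 87.9 CPM in Bax het Atoh7 null replicate 1 (log2 ratio 0.55, 0.137 to 1.004) and 87.4 against 88.8 CPM in replicate 2 (-0.02, -0.33 to 0.30). The level in the Ftl1-high progenitors was thus close to the Bax het value of replicate 2 and below that of replicate 1. The level in the Ftl1-zero progenitors was below every control value. The Ftl1-high level went against the Bax null label of the library, and the genotype of these cells was not tested. Minus the mean of the control ratios, the progenitor ratio was 2.29.

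Neurogenic cells, the progenitors that leave the cell cycle, gave the same picture. Bax stood at 114.9 CPM (92.8 to 140.8) in their Ftl1-high class and at 16.1 CPM (10.99 to 22.7) in their Ftl1-zero class, a log2 ratio of 2.84 (2.25 to 3.47), and 2.86 without the shared barcodes. The control ratios were 0.65 (-0.09 to 1.505) in Bax het Atoh7 null replicate 1 and 0.24 (-0.28 to 0.80) in replicate 2. The ratio minus their mean was 2.39. In replicate 1 Bax had 15 UMIs in the Ftl1-zero class and was under the filter on UMIs described below. The Ftl1-high neurogenic cells of the controls had 153.2 and 118.7 CPM of Bax. In ganglion cells Bax stood at 171.7 CPM (139 to 210) against 35.8 CPM (24.5 to 50.5), a log2 ratio of 2.26 (1.67 to 2.89), and 2.05 without the shared barcodes. The Ftl1-high ganglion cells of the Bax het libraries had 255.5 and 184.5 CPM of Bax, and the level in ganglion cells of the companion double mutant library was 30.1 CPM (22.3 to 39.6). With the low class of 0 to 2 Ftl1 UMIs the ganglion ratio was 1.75 in the library of interest, 1.22 in Bax het Atoh7 null replicate 1 (10 UMIs in the low class) and -0.31 in replicate 2. Cones had 153 against 46.0 CPM (1.73, 0.83 to 2.68) and horizontal cells 134 against 17.2 CPM (2.96, 1.55 to 4.70), the latter from 25 and 5 UMIs, and in both types Bax was under the filter on UMIs described below. The intervals of the classes did not overlap in any of the 5 types. Within the Ftl1-high class Bax was lowest in progenitors and highest in ganglion cells. The intervals of neurogenic and horizontal cells overlapped those of every other type, and only progenitors lay apart from ganglion cells and cones.

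**Figure D2:**
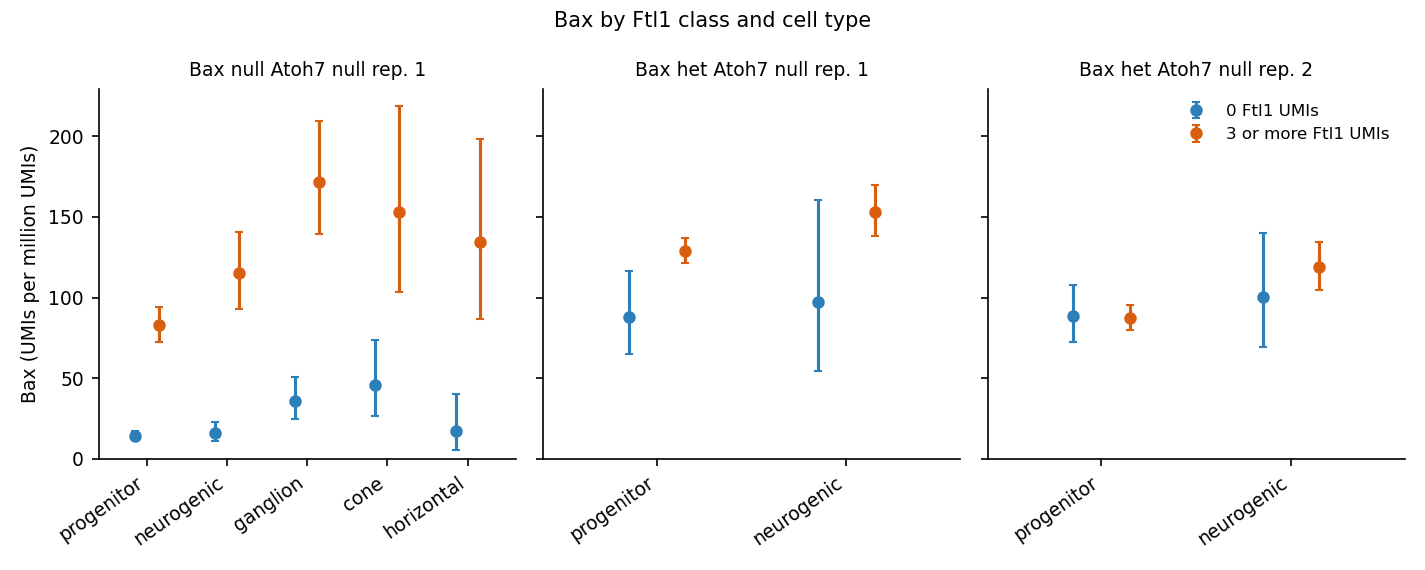
Bax level (y axis, CPM) by cell type in the zero class (blue) and the high class (orange), in Bax null Atoh7 null replicate 1 and, for the types with enough zero-class cells, in the Bax het Atoh7 null libraries. Bars are exact 95% Poisson intervals. In the first panel all 5 types are apart, with progenitors at 82.8 against 14.1, whereas in Bax het Atoh7 null replicate 2 progenitors are at 87.4 against 88.8.

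The Bax level followed the number of Ftl1 UMIs, in the library of interest mainly at its low end. In the library of interest, over all types, it was 17.2 CPM (14.9 to 19.8) in cells with 0 Ftl1 UMIs, 56.6 CPM (49.2 to 64.9) with 1, 90.6 CPM (77.2 to 105.7) with 2 and 93.2 CPM (78.2 to 110.2) with 3. Cells just inside and just outside the threshold of 3 therefore had like Bax levels. Control cells with 0 Ftl1 UMIs had 91.5 and 94.97 CPM of Bax. Those with 10 or more had 237.6 and 198.7 CPM, so over all types Bax rose with Ftl1 in the controls too. The companion double mutant library (replicate 2) stood at 9.78 CPM (8.15 to 11.6) in cells with 0 Ftl1 UMIs and 10.4 CPM (5.37 to 18.1) with 1, and the corresponding values were 21.1 and 23.0 CPM in Bax null replicate 1 and 21.2 and 25.5 CPM in replicate 2. The Bax interval of the Ftl1-zero class thus lay above that of replicate 2 of its own genotype and overlapped those of both Bax null libraries (16.7 to 26.2 and 14.9 to 29.2 CPM). A 3′ count can fall outside the removed part of a gene, so a low Bax level in a Bax null library does not by itself check the genotype.

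**Figure D3:**
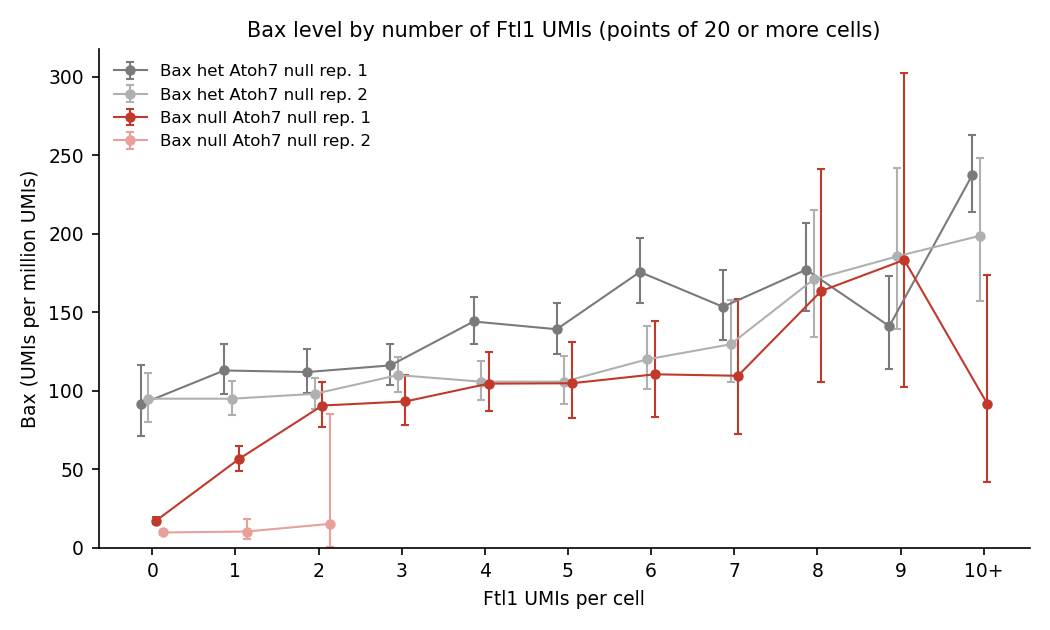
Bax level (y axis, CPM, all cell types summed) by number of Ftl1 UMIs per cell (x axis) in 4 Atoh7 null libraries, with exact 95% Poisson intervals and points of fewer than 20 cells left out. Bax null Atoh7 null replicate 1 runs from 17.2 at 0 Ftl1 UMIs to 90.6 at 2. Replicate 2 is at 9.78 at 0 and 10.4 at 1, and its point at 2 (15.3, 0.386 to 85.0) rests on 1 Bax UMI. The Bax het libraries begin above 90 and reach 237.6 and 198.7 at 10 or more.

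The other death regulators were near the median of all genes. The Bcl2 family list held 19 death regulators, of which 13 passed the filter in progenitors (at least 25 UMIs expected in the smaller class). Bax was the 1 member 2-fold apart, against 0.0972% of all genes tested in progenitors, and the members' median log2 ratio was -0.02, against -0.01 over all 8234 genes that passed. Bak1, the other pore-forming effector, stood at 25.4 against 27.8 CPM, and the protective members Bcl2 at 83.5 against 87.5 CPM and Mcl1 at 47.8 against 47.6 CPM. Bbc3, which encodes the BH3-only activator Puma, had a ratio of -0.26. In neurogenic cells 9 members passed and Bax was the 1 that was 2-fold apart (0.218% of all genes), and in ganglion cells 7 passed with the same outcome (0.351% of all genes). With so few genes 2-fold apart anywhere, these counts say little of the other members. Caspases and apoptosome genes, which carry out the death program downstream of Bax, had 0 of 16 members 2-fold apart in progenitors, 0 of 8 in neurogenic cells and 0 of 6 in ganglion cells, near the share of all genes, with median ratios of -0.06, -0.08 and -0.12.

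The partner of the selecting gene was level between the classes. Fth1 stood at 1421 against 1439 CPM in progenitors (log2 ratio -0.02), 1350 against 1389 CPM in neurogenic cells and 1109 against 1057 CPM in ganglion cells. Apart from Ftl1 itself, 0 of 12 iron-handling genes that passed the filter in progenitors were 2-fold apart, against 0.0972% of all genes, and their median ratio was -0.02. Tfrc, the transferrin receptor that imports iron, stood at 16.9 against 16.6 CPM, and Ireb2, the iron sensor that represses ferritin translation, at 16.2 against 21.9 CPM. The NRF2 target list, whose factor induces the ferritin genes under oxidative stress, had a median ratio of -0.01 over the 12 members that passed in progenitors, with 0 of them 2-fold apart, again near the share of all genes.

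Along chromosome 7 Bax was the gene 2-fold apart when the cell types were averaged. For this view the CPM of each class was averaged over the 5 cell types with the type shares of the library as weights, which gave Bax 100.8 against 17.7 CPM (log2 ratio 2.51). Of the 44 other genes whose start lay within 1 Mb of that of Bax, 0 were 2-fold apart, their median was -0.01 and they ranged from -0.49 (Gm15545) to 0.69 (Rcn3). The median over all 9596 genes was also -0.01. In progenitors the nearest genes on the Ftl1 side were Ruvbl2 (93.8 against 105.8 CPM), Gys1 (17.3 against 14.3 CPM) and Snrnp70 (124 against 134 CPM). On the other side were Nucb1 (23.6 against 30.1 CPM), Ppp1r15a (28.0 against 29.7 CPM) and Bcat2 (12.1 against 13.6 CPM). Over the whole chromosome 0 of 710 genes other than Bax were 2-fold apart, with extremes in Chst15 (-0.95) and Wtip (0.92). Over all 9596 genes 0.104% were 2-fold apart, so counts of 0 among 44 or 710 genes say little of them. Within a single type Numbl, an adaptor protein gene of neural progenitors on this chromosome, was also 2-fold apart, at 37.6 against 76.0 CPM in ganglion cells (-1.02, -1.80 to -0.29), with its start 18.2 Mb from that of Bax.

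**Figure D4:**
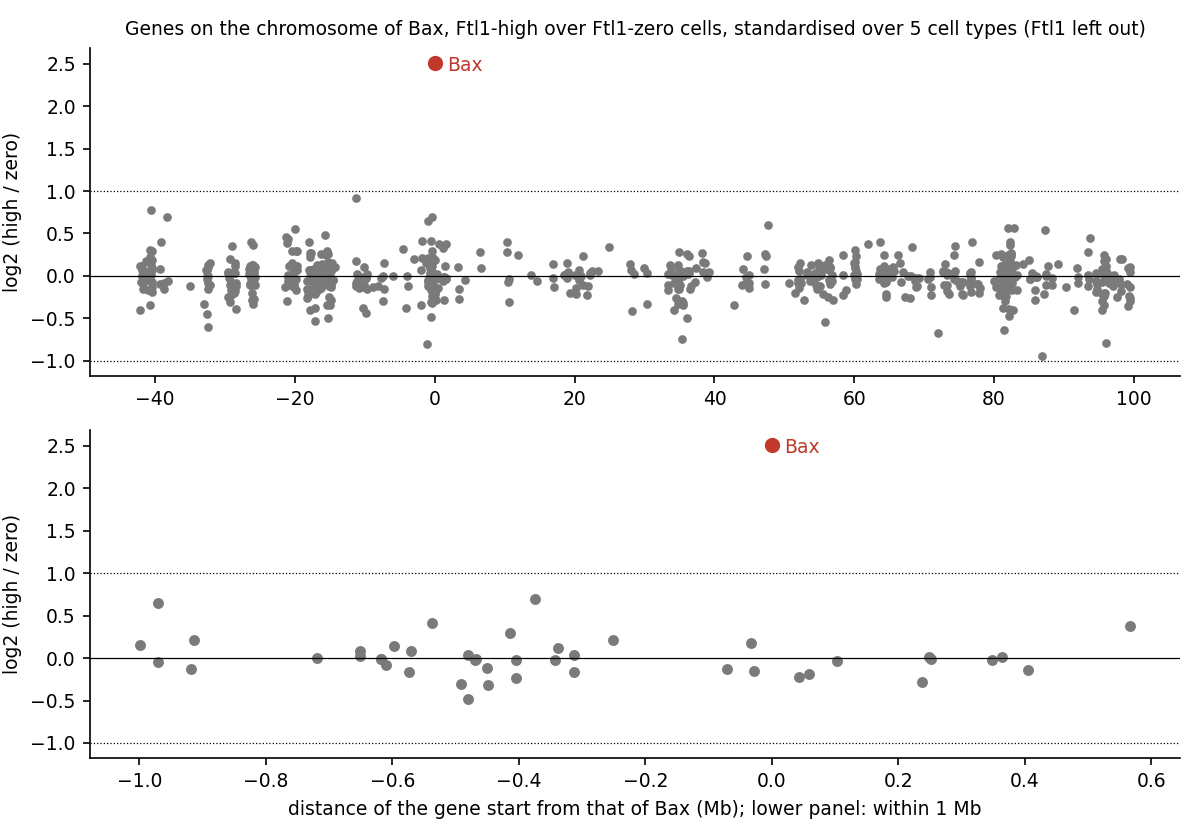
Log2 ratio of the high over the zero class (y axis) by distance of the gene start from that of Bax (x axis, Mb), for the chromosome (upper panel) and within 1 Mb (lower panel). Each point is 1 gene, dotted lines mark 2-fold and Ftl1 is left out. Bax stands at 2.51 and the other 44 genes within 1 Mb lie between -0.49 and 0.69.

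Over all chromosomes few genes were 2-fold apart, with Ftl1 left out and Bax counted where it passed the filter. In the library of interest these were 8 of 8234 genes in progenitors (0.0972%), 10 of 4589 in neurogenic cells (0.218%), 13 of 3704 in ganglion cells (0.351%), 2 of 1414 in cones (0.141%) and 1 of 1346 in horizontal cells (0.0743%). The control splits gave 11 of 3381 (0.325%) and 3 of 5670 (0.0529%) in progenitors and 3 of 1083 (0.277%) and 14 of 2337 (0.599%) in neurogenic cells, for replicates 1 and 2. The shares in the library of interest were thus within the range of the controls in progenitors and below it in neurogenic cells. Minus the mean of the control ratios, 6 of 3381 genes (0.177%) were 2-fold apart in progenitors and 2 of 1083 (0.185%) in neurogenic cells. Averaged over types, 10 of 9596 genes (0.104%) were: Bax, Eif3j2 and Slc30a4 were higher in the Ftl1-high class, and Chek2, Fanca, Tsix, Eif3j1, Nupl2, Atf3 and Ndufs5 were lower.

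Eif3j1 and Eif3j2, near-identical copies that encode a subunit of translation initiation factor 3, differed in opposite directions, and reads may be split between them. In progenitors Eif3j2 stood at 47.5 CPM (39.6 to 56.4) in the Ftl1-high class and 11.3 CPM (9.03 to 13.9) in the Ftl1-zero class, and Eif3j1 at 33.1 CPM (26.6 to 40.7) and 76.1 CPM (70.1 to 82.5). Their sum was level, at 80.6 CPM (70.3 to 92.0) and 87.4 CPM (80.9 to 94.2). The log2 ratio of Eif3j2 was 2.08 in progenitors and 2.27 in neurogenic cells, and that of Eif3j1 was -1.20, -1.04 and -1.14 in progenitors, neurogenic and ganglion cells. Between libraries the progenitor level of Eif3j2 fell into groups that cut across the genotypes, with 34.6 CPM in Bax het Atoh7 null replicate 1, 1.16 CPM in its replicate 2 and 0.551 CPM in Bax null Atoh7 null replicate 2. The Ftl1-zero class lay above the last of these and below the first.

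Transcripts tied to the sex chromosomes also differed between the classes. Xist, the RNA that coats the inactive X chromosome of female cells, stood at 963 CPM (927 to 1001) in Ftl1-high and 1873 CPM (1843 to 1904) in Ftl1-zero progenitors. The log2 ratios were -0.96 in progenitors, -1.03 in neurogenic cells and -1.03 in ganglion cells, and -0.999, -1.08 and -1.09 without the shared barcodes. Tsix, its antisense partner, whose reads the files do not separate by strand as far as the sources state, gave -1.09 in progenitors. The Y-linked genes Ddx3y, Eif2s3y, Uty and Kdm5d summed to 83.5 CPM (73.0 to 95.1) against 52.7 CPM (47.7 to 58.0) in progenitors. Their sums were 74.1 CPM (56.6 to 95.4) against 56.2 CPM (46.3 to 67.7) in neurogenic cells. In ganglion cells they were 85.9 CPM (63.3 to 113.8) against 50.3 CPM (36.7 to 67.3). The intervals of the classes overlapped in neurogenic and ganglion cells. The controls went different ways for Xist in progenitors, with 702 CPM in Ftl1-high and 200 CPM in Ftl1-zero cells of Bax het Atoh7 null replicate 1, and 2502 and 3103 CPM in replicate 2. The classes of the library of interest thus differed in a mark of sex as well as in Bax, and the part of sex in the other differences was not tested. Among cells with 1 or more Xist UMIs the Bax ratio was 2.88 in progenitors, 3.39 in neurogenic and 2.20 in ganglion cells, and among cells with 0 it was 2.07, 2.07 and 2.42.

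The other genes at the extremes in progenitors were Slc30a4, a zinc transporter, at 13.6 against 5.12 CPM (log2 ratio 1.41), Ddx3y (1.05), the respiratory complex I subunit gene Ndufs5 (-1.21) and C030037D09Rik (-1.05). In neurogenic cells 1110051M20Rik (1.18), Cabin1 (1.17) and Smim4 (1.07) were higher in the Ftl1-high class, and Gzf1 (-1.29), Arfrp1 (-1.21) and D2Wsu81e (-1.01) were lower. Cabin1, which encodes a calcineurin inhibitor, stood at 53.1 against 23.6 CPM, and Arfrp1, a small GTPase of the Golgi, at 44.5 against 103 CPM. In progenitors Arfrp1 stood at 67.7 against 80.1 CPM and Gzf1 at 29.8 against 30.6 CPM, so these differences were not seen at that size in both types. In cones Map2, a neuronal microtubule protein, stood at 209 against 89.4 CPM (1.23) and Hmgb2, a chromatin protein of dividing cells, at 112 against 241 CPM (-1.10). The gene 2-fold apart in horizontal cells was Mrps17 (-1.01), a mitochondrial ribosomal protein gene.

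In retinal ganglion cells Atf3 and the summed integrated stress response list were lower in the Ftl1-high class, while the neuronal injury list was level. Atf3, a stress-induced transcription factor and an early gene of the neuronal injury response, had the lowest ratio of all genes that passed the filter there. It stood at 21.5 CPM (11.1 to 37.5, 12 UMIs) in Ftl1-high and 74.9 CPM (58.0 to 95.1, 67 UMIs) in Ftl1-zero ganglion cells, a log2 ratio of -1.80 (-2.82 to -0.90), and -1.92 without the shared barcodes. Cells with 1 or 2 Ftl1 UMIs had 31.6 CPM. In Ftl1-high ganglion cells of Bax het Atoh7 null replicates 1 and 2 it stood at 19.3 and 22.4 CPM, and in all window ganglion cells of Bax null Atoh7 null replicate 2 at 58.9 CPM. The Ftl1-high cells of the library of interest were thus at the Bax het level, and its Ftl1-zero cells had an interval that overlapped that of the other Bax null Atoh7 null library (47.8 to 71.8 CPM). Against the low class of 0 to 2 Ftl1 UMIs the ratio was -1.57 in the library of interest and 0.07 in Bax het Atoh7 null replicate 2, while replicate 1 had 26 UMIs in the high class and 0 in the low class of 43 cells. In progenitors Atf3 stood at 3.68 against 4.99 CPM, with overlapping intervals (1.77 to 6.77 and 3.55 to 6.82).

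Cdkn1a, the p53 target that encodes the cell cycle inhibitor p21, differed in the same direction but with too few UMIs to pass the filter. It stood at 23.3 CPM (12.4 to 39.8, 13 UMIs) in Ftl1-high and 54.7 CPM (40.5 to 72.4, 49 UMIs) in Ftl1-zero ganglion cells, a log2 ratio of -1.24. In the narrower window of 2000 to 3000 UMIs this ratio turned to 0.38. The Ftl1-high ganglion cells of the Bax het libraries had 15.6 and 13.2 CPM, and all window ganglion cells of Bax null Atoh7 null replicate 2 had 40.3 CPM. With the low class of 0 to 2 Ftl1 UMIs the ratio was -0.96 in the library of interest, -2.08 in Bax het Atoh7 null replicate 1 (6 UMIs in the low class) and 0.31 in replicate 2 (3 UMIs).

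The 250 bases before the RefSeq starts of these genes (GRCm38.p6) are shown because Atf3 and Cdkn1a are the named stress genes of the comparison. For Atf3 (chr1:191183334-191183583, minus strand) capitals mark TTACGTCA, a form of the element bound by ATF and CREB factors, found 1 time on either strand and held by 0.447% of the 32851 promoter windows. For Cdkn1a (chr17:29090729-29090978, plus strand, the more upstream of 2 listed starts) capitals mark CATGNNNNNNCATG, the core of paired p53 recognition sequences, found 1 time and held by 0.490% of windows. Neither motif was found in the Ftl1 window, which says only that these letters are not in it, and no binding was measured.
Atf3: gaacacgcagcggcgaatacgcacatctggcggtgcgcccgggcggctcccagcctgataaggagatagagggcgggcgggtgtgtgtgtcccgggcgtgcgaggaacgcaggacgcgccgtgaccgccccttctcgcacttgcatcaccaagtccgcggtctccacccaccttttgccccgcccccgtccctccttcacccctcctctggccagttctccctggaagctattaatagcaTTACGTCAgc
Cdkn1a: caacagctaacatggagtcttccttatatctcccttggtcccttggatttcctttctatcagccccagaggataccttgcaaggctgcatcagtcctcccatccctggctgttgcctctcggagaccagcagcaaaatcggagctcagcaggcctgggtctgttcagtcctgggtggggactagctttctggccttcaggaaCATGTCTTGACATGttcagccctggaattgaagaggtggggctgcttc

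The integrated stress response list, genes induced through the factor ATF4 when translation initiation is held back, was lower in sum as well. Its 30 genes summed to 2831 CPM in Ftl1-high and 3736 CPM in Ftl1-zero ganglion cells, a log2 ratio of -0.40 (-0.49 to -0.31), and -0.42 without the shared barcodes. Of the 21 members that passed the filter 17 had a ratio under 0, and the median was -0.37 against -0.01 over all 3704 genes. Atf3 alone was 2-fold apart, against 0.351% of all genes. Gars, a tRNA ligase gene, stood at 168 against 275 CPM, Asns, which makes asparagine, at 122 against 188 CPM, and Eif4ebp1, a repressor of cap-dependent translation, at 71.5 against 129.6 CPM. Ddit3, which encodes the death-promoting factor CHOP, stood at 165 CPM (133 to 202) against 229 CPM (199 to 263), and both classes were above the Ftl1-high ganglion cells of the Bax het libraries (115.9 and 87.4 CPM). Trib3 (12.5 against 38.0 CPM, 7 and 34 UMIs) and Nupr1 (21.5 against 60.3 CPM, 12 and 54 UMIs) were under the filter. Cebpb had 0 UMIs in the Ftl1-high class and 20 in the Ftl1-zero class. With a floor of 3 UMIs for the former it was 4.16-fold lower, a value set by the floor and not a lower bound. Chac1 went the other way, at 59.0 against 43.6 CPM, with overlapping intervals, and Atf4 itself stood at 270 against 294 CPM.

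The stress response sum was also compared with the cells of neither class and with the other libraries. Ganglion cells with 1 or 2 Ftl1 UMIs had 2577 CPM (2403 to 2760). That interval overlapped the one of the Ftl1-high class (2694 to 2974) and lay below the one of the Ftl1-zero class (3611 to 3865). Ftl1-high ganglion cells of the Bax het libraries had 2395 and 2318 CPM, and ganglion cells of Bax null Atoh7 null replicate 2 had 3327 CPM. Window ganglion cells of Bax null replicates 1 and 2, deeper libraries not labelled Atoh7 null, had less than all of these, at 1110 and 886 CPM. The Bax null libraries differed from the others in depth, mitochondrial share and Atoh7 label together, so the part of the Bax label cannot be told apart. Against the low class of 0 to 2 Ftl1 UMIs the summed ratio was -0.28 in the library of interest, 0.13 in Bax het Atoh7 null replicate 1 and -0.17 in replicate 2. The ratio shrank to -0.21 in the window of 2000 to 3000 UMIs and to -0.23 when the Ftl1-zero cells were weighted to the authors' cluster mix of the Ftl1-high cells. In progenitors the same list gave -0.04 and in neurogenic cells -0.04, with control values between -0.16 and -0.07.

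**Figure D5:**
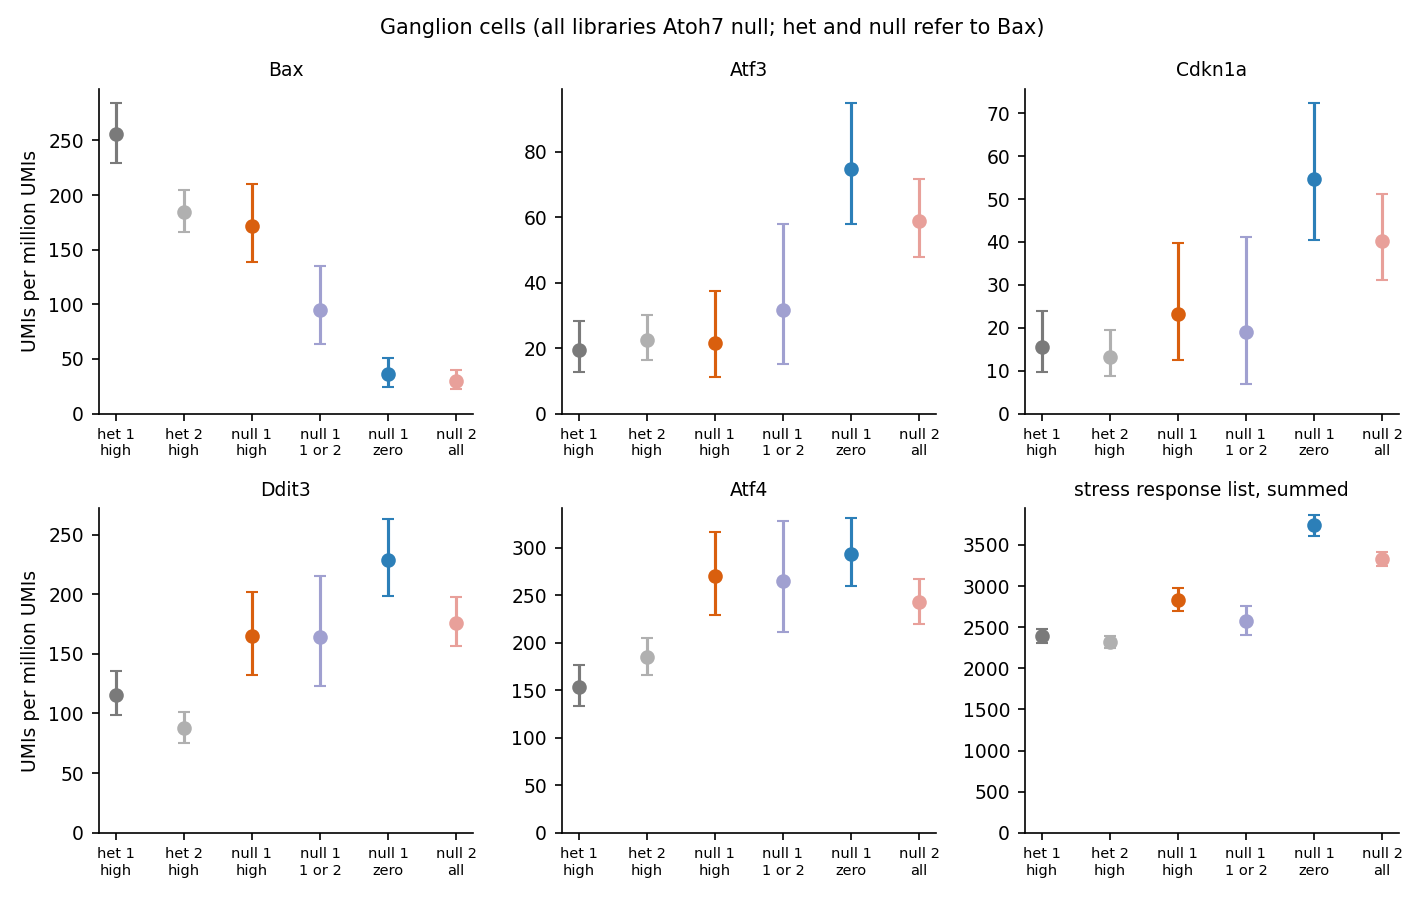
Levels in ganglion cells (y axes, CPM) of Bax, Atf3, Cdkn1a, Ddit3, Atf4 and the summed integrated stress response list, for the high class of the Bax het libraries (het 1 and 2), the high, middle (1 or 2 Ftl1 UMIs) and zero classes of Bax null Atoh7 null replicate 1 (null 1) and all window cells of replicate 2 (null 2), with exact 95% Poisson intervals. Atf3 is at 19.3, 22.4 and 21.5 in the 3 high classes, 74.9 in the zero class and 58.9 in replicate 2.

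Genes of p53 and its targets summed to 1468 against 1751 CPM in ganglion cells, a log2 ratio of -0.25 (-0.38 to -0.13). The control libraries, with the low class of 0 to 2 Ftl1 UMIs, gave -0.33 and -0.44 against -0.26 in the library of interest. Of 6 members that passed 0 were 2-fold apart, near the share of all genes (0.351%). Gadd45a, a growth arrest gene that is also a neurogenic marker, stood at 665 against 816 CPM, and Mdm2, the ligase that degrades p53, at 75.1 against 90.5 CPM. The neuronal injury list, which holds Atf3 and Jun among others, summed to 7276 against 7138 CPM (0.03), with Jun at 315 CPM in both classes.

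Ganglion cell markers were slightly higher in the Ftl1-high ganglion cells. Of the 15 markers that passed the filter 14 had a ratio above 0, the median was 0.27 and the list summed to 14513 against 12644 CPM (0.20, 0.16 to 0.24). Isl1, a factor of ganglion cell differentiation, stood at 585 against 413 CPM, and the neurofilament gene Nefm at 2062 against 1633 CPM. Over the library of interest and the controls, with the low class of 0 to 2 Ftl1 UMIs, the summed ratio was 0.24, 0.49 and 0.40, so Ftl1-rich ganglion cells had more of these markers in all 3 libraries. Outside the lists Etnk1 (76.9 against 30.2 CPM), an enzyme of phospholipid synthesis, was higher in the Ftl1-high class. Pik3r1, the regulatory subunit of PI3-kinase, was lower (66.2 against 148.6 CPM, log2 ratio -1.17). Against the low class of 0 to 2 Ftl1 UMIs Etnk1 gave 1.37 in the library of interest and -0.50 and 0.17 in the controls, and Pik3r1 -1.05 and then -0.64 and -0.26. Progenitor markers summed to 2377 against 2752 CPM in the same cells (-0.21, and -0.07 without the shared barcodes). Neurogenic markers, which belong to the stage before ganglion cells, summed to 2157 against 2589 CPM (-0.26, -0.36 to -0.16, and -0.34 without the shared barcodes), with 6 of 6 members that passed under 0. Neurogenic markers were thus lower in the Ftl1-high ganglion cells together with Atf3 and the stress response sum, with and without the shared barcodes. The gap in progenitor markers mostly went with the shared barcodes. The part of less mature cells in the Atf3 and stress response results was not tested.

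Cell cycle genes were level or slightly lower in the Ftl1-high class. S phase genes had 16 of 20 members with a ratio under 0 in progenitors (median -0.12, summed 2364 against 2577 CPM) and 16 of 19 in neurogenic cells (median -0.24, summed ratio -0.26, -0.34 to -0.19). Of these members 0 were 2-fold apart in either type, near the shares of all genes (0.0972% and 0.218%). The control sums were -0.02 and -0.03 in progenitors and -0.09 and -0.51 in neurogenic cells. Genes of G2 and mitosis summed to -0.03 in progenitors and 0.02 in neurogenic cells, with 0 of 21 members 2-fold apart in each, again near the shares of all genes. In ganglion cells the S phase sum gave -0.21 (-0.40 to -0.03) and the G2 and mitosis sum -0.26 (-0.45 to -0.07), and without the shared barcodes -0.08 and 0.07. In cones they gave -0.42 (-0.71 to -0.13) and -0.36 (-0.65 to -0.07), and without the shared barcodes -0.23 and -0.20. Progenitor markers in progenitors (0.01) and neurogenic markers in neurogenic cells (-0.07) were level in sum, and each of these types carried its own markers at the higher sum, with 10980 CPM of progenitor markers in Ftl1-high progenitors against 5183 CPM in Ftl1-high neurogenic cells.

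Markers of microglia, pigment epithelium, lens and mesenchyme were low in both classes. In progenitors the 12 microglia and macrophage markers summed to 10.7 and 7.29 CPM, the 8 pigment epithelium markers to 3.68 and 4.22 CPM, the 8 lens markers to 1.47 and 2.30 CPM and the 8 mesenchyme markers to 13.2 and 14.7 CPM. Endothelial markers summed to 82.4 and 101 CPM. Hemoglobin and other blood genes were not low, with sums of 279 and 245 CPM in progenitors, 248 and 253 CPM in neurogenic cells and 259 and 288 CPM in ganglion cells. In progenitors of the controls they summed to less, at 116 and 117 CPM in Bax het Atoh7 null replicate 1 and 17.7 and 25.6 CPM in replicate 2. The part of blood transcripts in the results was not tested.

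The classes differed in cell type makeup in every library of the split, the controls included. Ganglion cells were 12.9% of the Ftl1-high class (11.4 to 14.5, exact Clopper-Pearson 95% interval) and 8.04% of the Ftl1-zero class (7.29 to 8.83) in the library of interest, and 12.8% and 8.02% without the shared barcodes. In the controls they were 10.1% and 0.623% in Bax het Atoh7 null replicate 1, and 17.3% and 1.24% in replicate 2. Ganglion cells had a higher Ftl1 level than progenitors in all 3 libraries, with 876 against 459 CPM, 3025 against 1497 CPM and 2273 against 1048 CPM in the same order. Since Ftl1 UMIs define the classes, a type with more Ftl1 is bound to take a larger share of the high class, and the shares are a description only. Over all window cells ganglion cells were 8.47% in the library of interest, 12.1% in Bax null Atoh7 null replicate 2, and 7.76% and 10.7% in the Bax het libraries. As in any count of sampled cells, more ganglion cells and fewer of the other types cannot be told apart from these shares.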

How the data were processed

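The authors deposited UMI counts per gene and cell with a table of cell type labels; Cell Ranger 1.2.1 and the mm10 build were used, per the submitters' processing notes, and how strand was counted is not given in the sources used here. Column totals of the counts equalled the deposited totals in all 67050 cells. The members and gene lists were chosen with earlier results of these data known. Counts were summed per library, cell type and Ftl1 class in cells of 1500 to 4000 UMIs (Python 3.11.15, numpy 2.4.6, scipy 1.17.1, pandas 2.3.3). Genes entered a comparison with at least 25 expected UMIs in the smaller class, and 2-fold was the size threshold. Intervals are exact Poisson for levels and exact binomial for ratios and shares (95%). A class at 0 was given a floor of 3 UMIs. Named genes are Bax, Ftl1, genes within 1 Mb of Bax, list members, and the 5 highest and 5 lowest ratios, and differences from the control mean, per type; some of them are not reported here. The sums were tested on simulated data. The automatic threshold of Scrublet (scanpy 1.11.5) marked 0.007% to 0.062% of cells and was not usable, so doublets were kept, and leaving out the 8% highest scores was an alternative. GENCODE M21 positions matched 27645 genes (98.7%).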

Additional observations from a re-analysis of the deposited data

How the results depend on the processing

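No paired analysis was possible because 1 library carries the comparison and no test was run, and that library could not be left out. The alternatives with shared barcodes left out, the low class of 0 to 2 Ftl1 UMIs and the splits on Xist were chosen after seeing the data. Of 182 alternatives of the main results 123 moved the value by less than its counting interval (counts, less than 1.5 times) and 59 by more, and 256 of 283 for named genes did not move; the cause was not tested. With each Bax het library left out, the Bax ratio minus the control ranged from 2.002 to 2.58 in progenitors and from 2.19 to 2.60 in neurogenic cells. The Bax ratio kept its sign throughout. With a low class of 0 or 1 Ftl1 UMIs it was 1.87 in progenitors (1.67 minus the control) and 2.13 in neurogenic cells. With 0 to 2 it was 1.53 and 1.61, and 1.35 and 1.30 minus the control. In cells with 0 Xist UMIs it was 2.07 in progenitors, 2.07 in neurogenic cells and 4.11 in cones, and 1.85 and 1.52 minus the control in the former types. In cells with Xist UMIs the neurogenic ratio minus the control was 3.66. That control rests on very few cells, since Bax het Atoh7 null replicate 1 had 4 Ftl1-zero neurogenic cells with Xist UMIs. In the window of 2000 to 3000 UMIs the progenitor ratio minus the control was 1.93.

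The stress response sum in ganglion cells was -0.30 with a low class of 0 or 1, -0.28 with 0 to 2, -0.21 in the narrower window, -0.23 with matched clusters and -0.50 in cells with 0 Xist UMIs. The p53 sum was -0.41 with 5 or more Ftl1 UMIs and -0.13 in cells with Xist UMIs. Cdkn1a reversed to 0.38 in the narrower window. The ganglion cell share differed by 13.2 percentage points with 5 or more Ftl1 UMIs and by 7.23 in the narrower window, against 4.84.

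Counts of genes 2-fold apart followed the filter. With at least 10 expected UMIs they were 58, 100, 171, 84 and 121 in progenitors, neurogenic cells, ganglion cells, cones and horizontal cells. At 1.5-fold they were 122, 132, 168, 51 and 63. With at least 50 expected UMIs they were 3 in neurogenic cells, 3 in ganglion cells, 0 in cones and 0 in horizontal cells. With 5 or more Ftl1 UMIs they were 3, 7 and 0 in neurogenic, ganglion and horizontal cells, and in the narrower window 6 and 7 in neurogenic and ganglion cells, 1 in cones and 0 in horizontal cells. A low class of 0 or 1 gave 7 in ganglion cells and 1 in cones, and 0 to 2 gave 6 in neurogenic cells, 6 in ganglion cells and 1 in cones. Matching depth gave 20 in ganglion and 3 in horizontal cells, leaving out high doublet scores gave 3 in horizontal cells, and leaving out shared barcodes gave 4 there. Cells with Xist UMIs gave 2 in neurogenic cells, 2 in ganglion cells, 1 in cones and 4 in horizontal cells, and cells with 0 gave 15 in progenitors and 1 in cones. Depth limits cones and horizontal cells most, where 1414 and 1346 genes passed the filter.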
